A study of Rattus norvegicus with 7 samples.

Results

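The mRNAs of 10 glycolytic enzymes were followed in RNA that co-purified with TRF2-S from rat cortical neurons. TRF2-S is the short, RNA-binding form of the telomere repeat-binding factor TRF2. The enzymes were *Gapdh*, *Aldoa*, *Aldoc*, *Eno1*, *Eno2*, *Pkm*, *Pgk1*, *Tpi1*, *Ldha* and *Ldhb*, chosen by gene symbol in the platform annotation, out of 13337 genes with a named probe. They had 11 probes, 2 for *Aldoa* and 1 for each of the others, and all 11 were bright enough to be tested. *Gapdh* RNA was the negative control of the biotin pulldown assays of the study, and its mRNA was the reference to which RT-qPCR of axonal RNA was normalized.

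Every array held RNA from cerebral cortical neurons of rat embryos at embryonic day 18, grown in culture for 9 days. Extracts underwent RNA immunoprecipitation (RIP) with a polyclonal antibody to TRF2-S (2 arrays) or with rabbit IgG (5 arrays), and the RNA was amplified, labelled with a single colour and measured on Illumina rat Ref-12 arrays. No extract was treated otherwise, and no untreated input RNA is among the arrays analysed here. The IgG arrays carry the names IgG1, IgG2, IgG3, IgG3_0 and IgG3_1x, and the labels do not say whether the last 3 hold separate RNA or whether the other arrays hold separate cultures. The p-values therefore measure the spread between these arrays, which may be technical.

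Glycolysis turns glucose into pyruvate in the cytosol and yields ATP and NADH without oxygen. In its lower part, aldolase splits a fructose bisphosphate, the triose phosphates pass through a dehydrogenase, a kinase and enolase, and pyruvate kinase makes pyruvate, which lactate dehydrogenase can reduce to lactate. Neurons carry these enzymes along axons and into terminals, and several of them exist as isoenzymes that differ between neurons, glia and other tissues. RIP against IgG asks which mRNAs travel with a protein, and abundant housekeeping mRNAs such as these are often used to show what co-purifies without selection.

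Levels are log2 intensities scaled to the same mean and SD on every array by a Z-score, the normalization of the study, and differences are TRF2-S RIP minus IgG RIP on that scale. A probe was called where limma gave a Benjamini-Hochberg adjusted p under 0.05 over the 9187 probes tested. Brightness depends on the probe as well as on its mRNA, so each probe is compared only with itself across arrays.

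The arrays fell into 2 sets before any enzyme was considered. Over the tested probes, IgG1, IgG2 and both TRF2-S arrays correlated with each other at 0.977 to 0.991, the arrays named IgG3 correlated with each other at 0.979 to 0.999, and pairs across the sets correlated at 0.875 to 0.933. Mean intensity per probe was 155 to 216 on the first 4 arrays and 298 to 608 on the arrays named IgG3, while the number of probes above background (detection p under 0.02) overlapped, at 7405 to 8326 and 7097 to 8293. Each enzyme is therefore given against all 5 IgG arrays and against IgG1 and IgG2. Both comparisons use the same TRF2-S arrays and share IgG1 and IgG2.

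No enzyme probe passed the test in either comparison. Against all 5 IgG arrays, limma called 0 of 11 enzyme probes, and 0.0327% of all tested probes. With IgG1 and IgG2 as the controls it also called 0 of 11, and 0.152% of all tested probes (0.142% higher and 0.0109% lower). Before adjustment, 2 enzyme probes were higher and 0 lower against 5 IgG arrays with p under 0.05 by limma, where 6.06% of all probes were higher and 6.06% lower. The same limit gave 0 higher and 2 lower against IgG1 and IgG2, where 6.51% of all probes were higher and 6.02% lower. The one-way ANOVA of the methods called 0 after adjustment in both comparisons, and at an unadjusted p under 0.05 it gave 0 enzyme probes against 5 IgG arrays and 2, both lower, against IgG1 and IgG2.

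**Figure D1:**
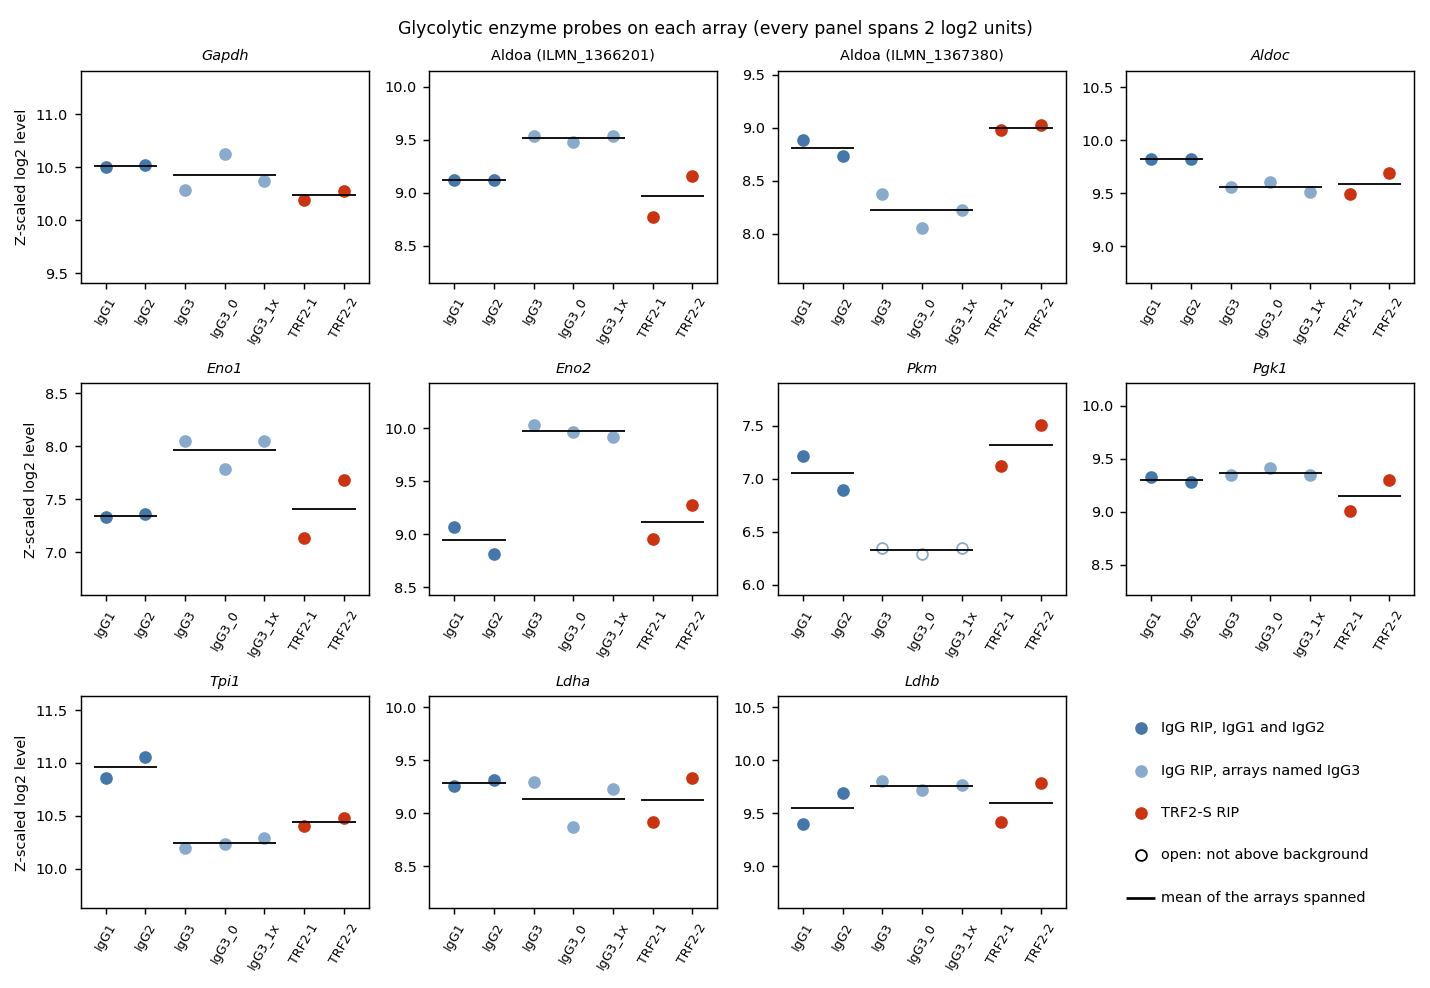
Z-scaled log2 level of the 11 enzyme probes on the 7 arrays, 1 panel per probe. Points are arrays, lines are means of IgG1 and IgG2, of the arrays named IgG3 and of TRF2-S RIP, and open points mark a probe not above background; the *Gapdh* points of TRF2-S RIP (10.19 and 10.28) lie below all IgG points, and most other panels overlap.

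*Gapdh* encodes the dehydrogenase that oxidizes glyceraldehyde phosphate. On the Z-scaled log2 scale its level was 10.51 and 10.52 on IgG1 and IgG2, 10.28, 10.63 and 10.37 on IgG3, IgG3_0 and IgG3_1x, and 10.19 and 10.28 on TRF2-S arrays 1 and 2. Both TRF2-S arrays lay below every IgG array, although the second matched IgG3 to within 0.01. The same order held for 11.6% of all tested probes, so it does not set *Gapdh* apart.

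Against all 5 IgG arrays the *Gapdh* difference was -0.22 (SE 0.13, limma adjusted p = 0.41), and 31.4% of all tested probes had a lower difference. With IgG1 and IgG2 alone it was -0.28 (SE 0.11, 95% confidence interval -0.52 to -0.03, unadjusted p = 0.034, limma adjusted p = 0.35), or 1.21-fold lower, and 8.22% of all probes had a lower difference. The sign of the *Gapdh* difference stayed negative under median centring, quantile normalization and neqc in both comparisons. The interval leaves room for no difference against all 5 IgG arrays (-0.52 to 0.07), and the negative control RNA was not measured as higher in the TRF2-S RIP in either comparison.

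*Gapdh* also shows how far the scaling carries these comparisons. Its unscaled intensity was 709.7 and 981.6 on IgG1 and IgG2 and 533.4 and 950.1 on the TRF2-S arrays, but 3959.8, 1622.7 and 3495.2 on IgG3, IgG3_0 and IgG3_1x. On unscaled signal the arrays named IgG3 were the brightest for *Gapdh*, and after scaling they no longer stood apart. With arrays only centred on their medians, the *Gapdh* difference against 5 IgG arrays was -1.0 (limma adjusted p = 0.57), with the median of all tested probes at -0.34 in place of -0.07.

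Of the aldolases, *Aldoc* encodes the brain form, which is rich in astrocytes, and *Aldoa* the form of muscle and most other tissues. The *Aldoc* level was 9.82 on both IgG1 and IgG2, 9.55, 9.61 and 9.51 on IgG3, IgG3_0 and IgG3_1x, and 9.49 and 9.69 on the TRF2-S arrays. Both TRF2-S arrays were thus below IgG1 and IgG2, the order of 19.4% of all tested probes in that comparison. The first TRF2-S array lay below the arrays named IgG3 and the second above them. The difference was -0.23 against IgG1 and IgG2 (SE 0.12, limma adjusted p = 0.49) and -0.07 against 5 IgG arrays (SE 0.14, limma adjusted p = 0.75), where quantile normalization and neqc turned it above 0.

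The 2 *Aldoa* probes gave different accounts of the same gene. Probe ILMN_1366201 read 9.12 on both IgG1 and IgG2, 9.53, 9.48 and 9.54 on IgG3, IgG3_0 and IgG3_1x, and 8.77 and 9.16 on the TRF2-S arrays. Probe ILMN_1367380 read 8.88 and 8.73 on IgG1 and IgG2, 8.38, 8.06 and 8.23 on IgG3, IgG3_0 and IgG3_1x, and 8.98 and 9.02 on the TRF2-S arrays. The first was brightest on the arrays named IgG3 and the second dimmest there.

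For ILMN_1367380 both TRF2-S arrays lay above every IgG array, as for 10.3% of all tested probes (22.5% where IgG1 and IgG2 are the controls). Its difference was 0.55 against 5 IgG arrays (SE 0.23, unadjusted p = 0.047, limma adjusted p = 0.41) and 0.20 against IgG1 and IgG2 (SE 0.11, limma adjusted p = 0.55). For ILMN_1366201 the differences were -0.39 (SE 0.18, limma adjusted p = 0.41) and -0.16 (SE 0.15, limma adjusted p = 0.76). The gene thus had opposite signs by probe in both comparisons, and no direction is given for *Aldoa*. The gap between the probes on 1 array, ILMN_1367380 minus ILMN_1366201, was -0.24 and -0.39 on IgG1 and IgG2, -1.15, -1.43 and -1.31 on IgG3, IgG3_0 and IgG3_1x, and 0.21 and -0.14 on the TRF2-S arrays. This gap was chosen after its values were seen and has no test, and the positions of the probes within the mRNA were not used here.

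*Tpi1*, which interconverts the triose phosphates, had the largest difference of the enzymes against IgG1 and IgG2. Its level was 10.86 and 11.05 on IgG1 and IgG2, 10.20, 10.24 and 10.29 on IgG3, IgG3_0 and IgG3_1x, and 10.41 and 10.48 on the TRF2-S arrays. TRF2-S RIP lay between the IgG sets, below IgG1 and IgG2 and above all arrays named IgG3. Both TRF2-S arrays below both IgG arrays was the order of 19.4% of all probes in that comparison.

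The *Tpi1* difference against IgG1 and IgG2 was -0.51 (SE 0.12, 95% confidence interval -0.79 to -0.24, unadjusted p = 0.0031, limma adjusted p = 0.17), or 1.43-fold lower, and 1.26% of all tested probes had a lower difference. It passed the threshold with quantile normalization of the 4 arrays (-0.41, limma adjusted p = 0.029), where 6.03% of all probes were called, and not with the other scalings. Against 5 IgG arrays the difference was -0.08 (SE 0.26, limma adjusted p = 0.85).

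*Pgk1* encodes the kinase that yields ATP after the *Gapdh* step. Its level varied least among the IgG arrays, at 9.33 and 9.28 on IgG1 and IgG2 and 9.35, 9.41 and 9.34 on IgG3, IgG3_0 and IgG3_1x, beside 9.01 and 9.29 on the TRF2-S arrays. The first TRF2-S array was low and the second lay within the IgG range. The difference was -0.19 against 5 IgG arrays (SE 0.12, limma adjusted p = 0.41), and with quantile normalization or neqc it was just above 0. The difference against IgG1 and IgG2 was -0.15 (SE 0.13, limma adjusted p = 0.73).

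Enolase dehydrates phosphoglycerate, *Eno1* being the widespread form and *Eno2* the neuron-specific one. The *Eno2* level was 9.07 and 8.82 on IgG1 and IgG2, 10.03, 9.97 and 9.92 on IgG3, IgG3_0 and IgG3_1x, and 8.96 and 9.27 on the TRF2-S arrays. The *Eno1* level was 7.33 and 7.36 on IgG1 and IgG2, 8.05, 7.79 and 8.04 on IgG3, IgG3_0 and IgG3_1x, and 7.13 and 7.68 on the TRF2-S arrays. For both enolases the arrays named IgG3 were the brightest, and TRF2-S RIP overlapped IgG1 and IgG2.

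The sign of both enolase differences depended on the IgG arrays used. *Eno2* differed by -0.44 against 5 IgG arrays (SE 0.37, limma adjusted p = 0.49) and by 0.17 against IgG1 and IgG2 (SE 0.15, limma adjusted p = 0.73). *Eno1* differed by -0.31 (SE 0.26, limma adjusted p = 0.50) and by 0.06 (SE 0.18, limma adjusted p = 0.93).

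*Pkm*, pyruvate kinase of muscle and brain, had the dimmest probe of the enzymes. Its level was 7.21 and 6.89 on IgG1 and IgG2, 6.35, 6.29 and 6.35 on IgG3, IgG3_0 and IgG3_1x, and 7.12 and 7.51 on the TRF2-S arrays. On all 3 arrays named IgG3 it failed to exceed background (detection p 0.31, 0.77 and 0.34), and the other 10 enzyme probes were above background on all 7 arrays. The difference against 5 IgG arrays, 0.70 (SE 0.28, unadjusted p = 0.041, limma adjusted p = 0.41), therefore rests on arrays without a measured signal. Against IgG1 and IgG2, where every array measured it, the difference was 0.26 (SE 0.17, limma adjusted p = 0.61) and the arrays overlapped.

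A lower bound replaces the fold where *Pkm* was below background. The brighter group's mean is set against a floor, which on each dim array is the higher of the probe's own level and the lowest level of any probe above background there. On the Z-scaled levels TRF2-S RIP was at least 1.64-fold higher than the arrays named IgG3, and IgG1 and IgG2 at least 1.37-fold higher. These bounds do not hold for unscaled intensity, where the floors were 130.1 (IgG3), 120.5 (IgG3_0) and 117.3 (IgG3_1x). Unscaled *Pkm* read 152.6 for TRF2-2, but only 105.1 for TRF2-1, 109.3 for IgG1 and 100.3 for IgG2. Without the floor, TRF2-S RIP minus the arrays named IgG3 was 0.99 (limma adjusted p = 8.8e-04). The arrays named IgG3 minus IgG1 and IgG2 gave -0.73 (limma adjusted p = 0.0042). With median centring the latter was -0.60 (limma adjusted p = 0.097).

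Lactate dehydrogenase is a tetramer of the *Ldha* product, typical of glycolytic tissue, and the *Ldhb* product, typical of heart and neurons. The *Ldha* level was 9.26 and 9.32 on IgG1 and IgG2, 9.29, 8.87 and 9.23 on IgG3, IgG3_0 and IgG3_1x, and 8.92 and 9.34 on the TRF2-S arrays. The *Ldhb* level was 9.40 and 9.69 on IgG1 and IgG2, 9.80, 9.72 and 9.76 on IgG3, IgG3_0 and IgG3_1x, and 9.41 and 9.78 on the TRF2-S arrays. In both genes the TRF2-S arrays spanned nearly the whole IgG range. Their differences were -0.07 for *Ldha* (SE 0.17, limma adjusted p = 0.82) and -0.08 for *Ldhb* (SE 0.16, limma adjusted p = 0.77) against 5 IgG arrays, both above 0 with quantile normalization and neqc. The corresponding values against IgG1 and IgG2 were -0.16 (SE 0.15, limma adjusted p = 0.76) and 0.05 (SE 0.16, limma adjusted p = 0.94).

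**Figure D2:**
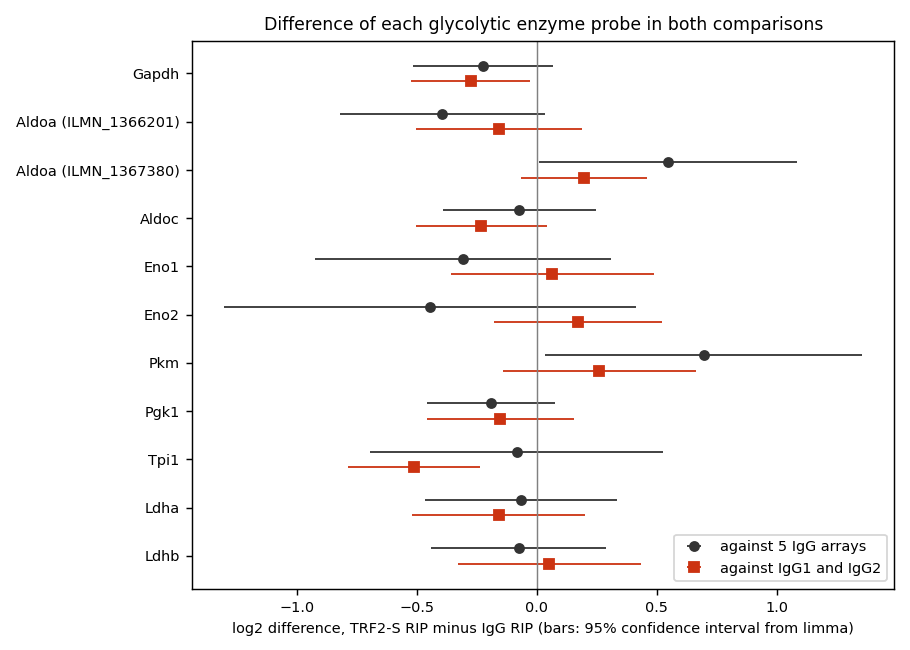
log2 difference, TRF2-S RIP minus IgG RIP, of each enzyme probe against all 5 IgG arrays (circles) and against IgG1 and IgG2 (squares), with 95% confidence intervals from limma. *Tpi1* against IgG1 and IgG2 (-0.51) lies farthest below 0 relative to its interval, and *Eno1*, *Eno2* and *Ldhb* lie on opposite sides of 0 in the 2 comparisons.

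As a group the enzymes lay near or below 0. Against 5 IgG arrays 9 of 11 probes were below 0, as were 58.7% of all tested probes, and the median difference was -0.08, beside -0.07 for all probes. Quantile normalization left 5 of 11 below 0 and neqc also 5. Against IgG1 and IgG2 6 of 11 were below 0, as were 48.6% of all probes, and the median was -0.15, beside 0.0048 for all probes.

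The TRF2-S arrays did not agree on that median. Measured from the IgG1 and IgG2 mean, the median enzyme probe was at -0.30 on TRF2-S array 1, where 3 of 11 probes were above 0, and at 0.05 on array 2, where 7 of 11 were. The median of all tested probes was -0.03 on array 1 and 0.03 on array 2. *Gapdh*, *Tpi1* and *Aldoc* were below the IgG1 and IgG2 mean on both TRF2-S arrays and *Aldoa* probe ILMN_1367380, *Pkm* and *Eno2* above it on both. *Aldoa* probe ILMN_1366201, *Eno1*, *Ldha* and *Ldhb* changed sign between the arrays, while *Pgk1* was below the mean on array 1 and almost at it on array 2.

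**Figure D3:**
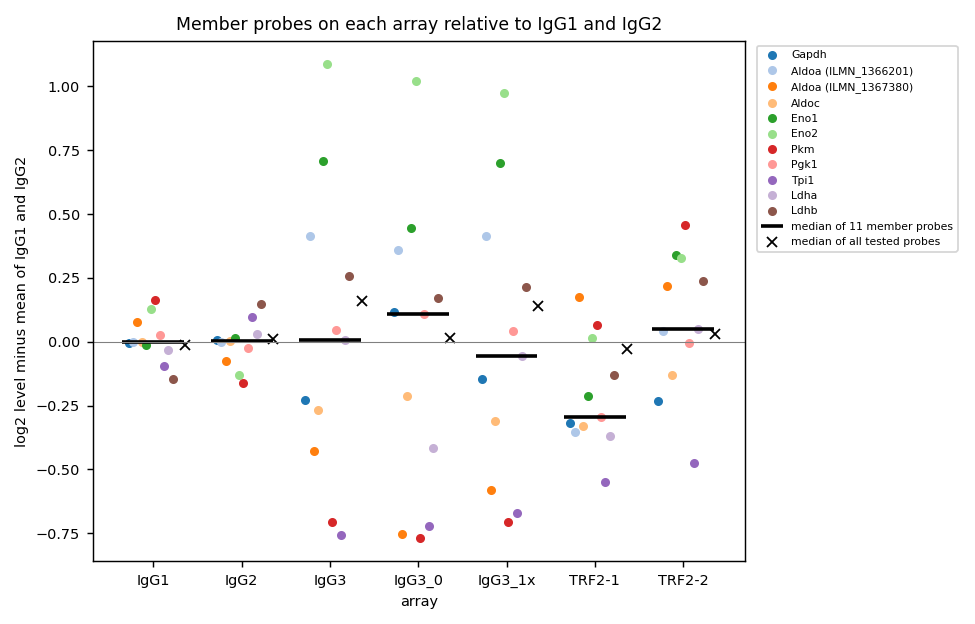
log2 level of each enzyme probe minus its mean on IgG1 and IgG2, for every array. Coloured points are probes, bars the median of the 11 enzyme probes and crosses the median of all tested probes; the bar is at -0.30 on TRF2-1 and 0.05 on TRF2-2, and the points spread farthest on the arrays named IgG3.

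The criteria of the study's methods were also applied. They ask for a z-ratio (the difference of mean Z-scores over the SD of such differences across all probes) of 1.5 or more in size. A probe must also have p under 0.05 in the Z-test and in the ANOVA, stay under 0.30 in false discovery rate, be above background, and have a mean Z-score that is not negative. Against 5 IgG arrays 0 enzyme probes passed, while 1.6% of all tested probes passed as higher and 2.09% as lower. Against IgG1 and IgG2 2 passed, *Gapdh* with a z-ratio of -1.80 and *Tpi1* with -3.36, both lower in the TRF2-S RIP. In that comparison 2.3% of all tested probes passed as higher and 1.39% as lower.

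More enzyme probes, and likewise more of all tested probes, passed the test among the IgG arrays than between TRF2-S and all IgG arrays. The 2 counts come from unlike fits. Against all 5 IgG arrays the split among them stays in the spread, while a fit of 3 groups models it (*Eno2* SE 0.37 and 0.13). The counts are therefore not read as sizes of effect. With the arrays named IgG3 set against IgG1 and IgG2 in a fit of 3 groups, limma called 6 of 11 enzyme probes, 3 higher and 3 lower on the arrays named IgG3, where 29.1% of all tested probes were called higher and 18.4% lower. *Eno2* rose by 1.03 (SE 0.13, limma adjusted p = 4.7e-04), *Eno1* by 0.62 (SE 0.16, limma adjusted p = 0.016) and *Aldoa* probe ILMN_1366201 by 0.40 (SE 0.12, limma adjusted p = 0.029). *Tpi1* was at -0.72 (SE 0.10, limma adjusted p = 7.6e-04) and *Aldoa* probe ILMN_1367380 at -0.59 (SE 0.12, limma adjusted p = 0.0044), with *Pkm* as given above. *Gapdh* was at -0.08 (SE 0.12, limma adjusted p = 0.57).

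The same fit set TRF2-S RIP against the arrays named IgG3 and called 5 of 11 enzyme probes, 2 higher (*Pkm* and *Aldoa* probe ILMN_1367380) and 3 lower (*Eno1*, *Eno2* and *Aldoa* probe ILMN_1366201), where 20.6% of all tested probes were called higher and 31.1% lower. With median centring 0 of 11 were called, with quantile normalization 8 (4 higher and 4 lower) and with neqc 4 (2 higher and 2 lower). Of all tested probes 0.403%, 61.6% and 60.1% were called under the same 3 scalings. *Gapdh* was at -0.19 in this contrast (limma adjusted p = 0.20) and was called with quantile normalization (-0.25, limma adjusted p = 0.017, where 61.6% of all tested probes were called) but not with median centring (-1.50, limma adjusted p = 0.080) or neqc (-0.26, limma adjusted p = 0.070).

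The calls among the IgG arrays are tied to the scaling. With median centring 0 of 11 enzyme probes and 0.0544% of all tested probes were called. The median of all tested probes moved from 0.10 to 0.55, and *Tpi1*, *Aldoa* probe ILMN_1367380, *Aldoc*, *Ldha* and *Gapdh* turned above 0. With quantile normalization 7 were called, 5 of them among the 6 above, where 59.6% of all tested probes were called. With neqc 6 were called, of which 4 were shared, where 57.4% of all tested probes were called. The enzyme counts thus moved with those of all tested probes. *Eno2*, *Pkm*, *Tpi1* and *Aldoa* probe ILMN_1367380 were called under the Z-score, quantile normalization and neqc. Array brightness moved with this split, at a mean intensity of 155 to 216 on the first 4 arrays and 298 to 608 on the arrays named IgG3. The log2 SD per array was 0.92 to 1.16 and 1.16 to 1.61 on the same sets, with IgG3_0 and TRF2-2 both at 1.16. The part of brightness or SD in the enzyme differences was not tested.

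Ratios within an array remove shifts that all probes of the array share, and only their change across arrays is read here. *Rab3a*, a vesicle GTPase, and *Aplp1*, an amyloid precursor-like protein, were RNAs set beside *Gapdh* in the pulldown assays of the study. The log2 ratio of *Rab3a* to *Gapdh* was -3.11 and -3.26 on IgG1 and IgG2, -3.64, -3.93 and -3.74 on IgG3, IgG3_0 and IgG3_1x, and -2.60 and -2.41 on the TRF2-S arrays. Both TRF2-S arrays were above all IgG arrays. The difference was 1.03 against 5 IgG arrays (two-sided exact permutation p = 0.095, adjusted p = 0.48 over 5 ratios), which is the smallest p this design can give. Against IgG1 and IgG2 it was 0.68 (exact permutation p = 0.33, the smallest that 2 against 2 arrays can give, adjusted p = 0.56).

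The log2 ratio of *Aplp1* to *Gapdh* was -1.03 and -1.37 on IgG1 and IgG2, 0.50, 0.47 and 0.51 on IgG3, IgG3_0 and IgG3_1x, and -0.52 and -0.36 on the TRF2-S arrays. TRF2-S RIP again lay between the IgG sets. The difference was 0.76 against IgG1 and IgG2 (two-sided exact permutation p = 0.33, adjusted p = 0.56) and -0.26 against 5 IgG arrays (exact permutation p = 0.67, adjusted p = 0.83). On their own, *Rab3a* differed by 0.80 against 5 IgG arrays (SE 0.25, limma adjusted p = 0.41) and 0.40 against IgG1 and IgG2 (SE 0.13, limma adjusted p = 0.28), and *Aplp1* by -0.48 (SE 0.56, limma adjusted p = 0.60) and 0.48 (SE 0.15, limma adjusted p = 0.26).

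The enolase and lactate dehydrogenase ratios overlapped between TRF2-S RIP and the 5 IgG arrays, and the aldolase ratio depended on the *Aldoa* probe. *Aldoc* minus *Aldoa* probe ILMN_1366201, which had the higher mean over the 7 arrays, was 0.70 on both IgG1 and IgG2, 0.02, 0.12 and -0.03 on IgG3, IgG3_0 and IgG3_1x, and 0.72 and 0.53 on the TRF2-S arrays. *Aldoc* minus the other *Aldoa* probe, ILMN_1367380, was 0.93 and 1.09 on IgG1 and IgG2, 1.17, 1.55 and 1.28 on IgG3, IgG3_0 and IgG3_1x, and 0.51 and 0.67 on the TRF2-S arrays. With the first probe the arrays overlapped, and with the second, added after the values were seen, both TRF2-S arrays lay below every IgG array.

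*Eno2* minus *Eno1* was 1.75 and 1.46 on IgG1 and IgG2, 1.98, 2.18 and 1.88 on IgG3, IgG3_0 and IgG3_1x, and 1.83 and 1.59 on the TRF2-S arrays. *Ldhb* minus *Ldha* was 0.14 and 0.37 on IgG1 and IgG2, 0.51, 0.85 and 0.53 on IgG3, IgG3_0 and IgG3_1x, and 0.50 and 0.45 on the TRF2-S arrays. The lactate dehydrogenase ratio had both TRF2-S arrays above IgG1 and IgG2, and the enolase ratio overlapped there.

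With *Aldoa* probe ILMN_1366201, the isoenzyme differences were 0.32, -0.14 and -0.01 for the aldolases, enolases and lactate dehydrogenases against 5 IgG arrays, with two-sided exact permutation p of 0.38, 0.57 and 0.95. With IgG1 and IgG2 they were -0.07, 0.11 and 0.21, with exact permutation p of 1, 0.67 and 0.33. The aldolase difference with ILMN_1367380 was -0.62 against 5 IgG arrays (exact permutation p = 0.095, unadjusted) and -0.43 against IgG1 and IgG2 (exact permutation p = 0.33, unadjusted), in each case the smallest p the design allows.

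**Figure D4:**
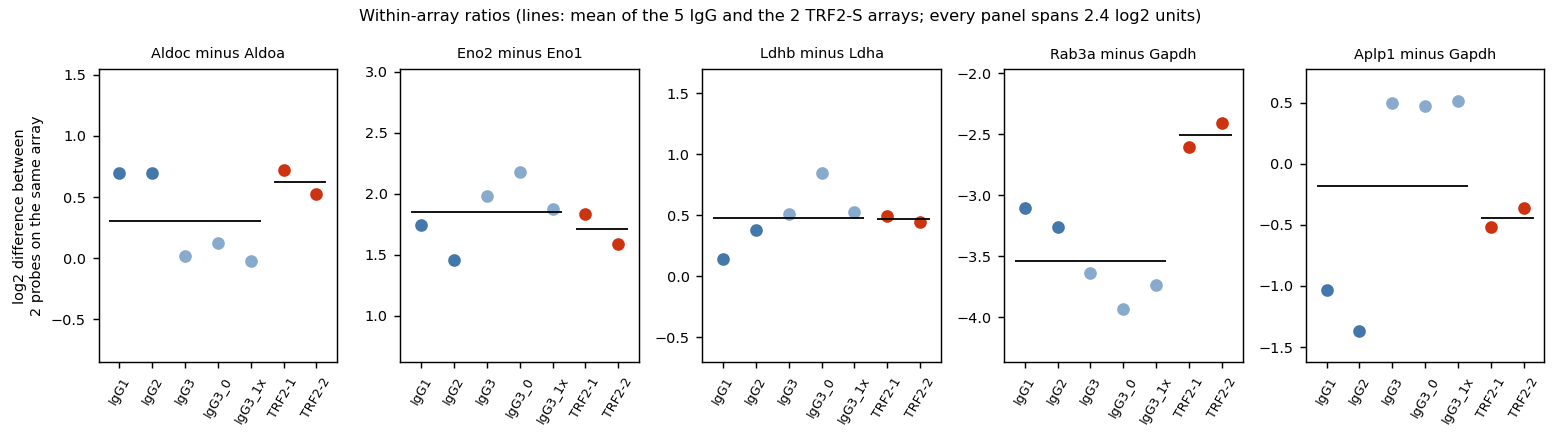
log2 difference between 2 probes on the same array for 5 gene pairs, with 1 point per array and lines at the means of the 5 IgG and the 2 TRF2-S arrays. Of these 5, with *Aldoa* as probe ILMN_1366201, only *Rab3a* minus *Gapdh* has both TRF2-S points (-2.60 and -2.41) above all 5 IgG points, and *Aplp1* minus *Gapdh* splits the IgG points into -1.37 to -1.03 and 0.47 to 0.51.

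The genes whose level followed *Gapdh* most closely over the 7 arrays were *Mgat2* (Pearson's r 0.973), *Prmt2* (0.969), *Fstl3* (0.966), *Ociad1* (0.958) and *Cnot8* (0.955), out of 6582 other named genes. These genes were selected as the highest of all those compared, so the other enzymes are not measured against them. *Pgk1* had r = 0.64 with *Gapdh*, *Aldoc* 0.55, both *Aldoa* probes 0.34 and -0.47, *Tpi1* 0.34 and the remaining probes -0.32 to 0.09. These correlations describe 7 arrays that include both sets, and the arrays share their scaling.

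The other genes of glucose metabolism were no more separated than the 10 enzymes, with 0 genes called in any of 7 lists in either comparison. Of the upper glycolytic enzymes 5 of 13 were tested, and before adjustment 0 were higher and 1 lower with p under 0.05 in each comparison. *Gpi*, the isomerase that precedes phosphofructokinase, differed by -0.60 against 5 IgG arrays (SE 0.14, limma adjusted p = 0.41) and -0.67 against IgG1 and IgG2 (SE 0.15, limma adjusted p = 0.17). *Pfkm*, a phosphofructokinase subunit, differed by 0.06 (SE 0.20) and 0.32 (SE 0.15).

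Of the remaining lower enzymes and paralogues 3 of 10 were tested, and 0 had an unadjusted p under 0.05 in either comparison. Of the glucose and lactate carriers 2 of 7 were tested, and *Bsg*, the chaperone of lactate carriers, differed by -0.47 against 5 IgG arrays (SE 0.18, limma adjusted p = 0.41) and -0.29 against IgG1 and IgG2 (SE 0.16, limma adjusted p = 0.54). Most carriers had no probe bright enough to measure.

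Beyond glycolysis, the mitochondrial entry of pyruvate had 12 of 15 genes tested, of which, before adjustment, 1 was higher and 1 lower with p under 0.05 against 5 IgG arrays and 0 higher and 1 lower against IgG1 and IgG2. *Pdk1*, a kinase that switches pyruvate dehydrogenase off, differed by -0.41 (SE 0.16, limma adjusted p = 0.41) and -0.56 (SE 0.13, limma adjusted p = 0.17). *Dld*, the dihydrolipoamide dehydrogenase of the same complex, differed by 0.49 (SE 0.20, limma adjusted p = 0.41) and 0.36 (SE 0.17, limma adjusted p = 0.44). A kinase and a catalytic subunit of 1 complex thus had opposite signs, neither past the threshold.

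Of the citric acid cycle 12 of 16 genes were tested, of which 3 were above 0 against 5 IgG arrays (median -0.15; 1 higher and 1 lower with unadjusted p under 0.05) and 5 against IgG1 and IgG2 (median -0.09; 1 higher and 0 lower). *Sdhb*, the iron-sulphur subunit of succinate dehydrogenase, differed by 0.49 against 5 IgG arrays (SE 0.15, limma adjusted p = 0.41) and 0.32 against IgG1 and IgG2 (SE 0.12, limma adjusted p = 0.34). *Idh3g*, a subunit of isocitrate dehydrogenase named after its values were seen, was the 1 lower gene against 5 IgG arrays, at -0.36 (SE 0.15, limma adjusted p = 0.41), and was at -0.34 against IgG1 and IgG2 (SE 0.15, limma adjusted p = 0.43). *Sdhc*, another succinate dehydrogenase subunit, followed *Sdhb* in the order of p against IgG1 and IgG2. It differed by 0.32 against 5 IgG arrays (SE 0.36, limma adjusted p = 0.60) and -0.27 against IgG1 and IgG2 (SE 0.11, limma adjusted p = 0.40). *Sdhb* and *Idh3g* thus kept their sign between comparisons, *Sdhc* changed it, and none passed the threshold.

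Of the pentose phosphate pathway 3 of 7 were tested, and *Pgls*, the lactonase, differed by 0.16 (SE 0.49, limma adjusted p = 0.84) and -0.68 (SE 0.15, limma adjusted p = 0.16). *Pgls* resembled *Tpi1* in that its difference hung on which IgG arrays were used. Of the shuttles that carry cytosolic reducing equivalents 4 of 6 were tested, all below 0 in both comparisons and none at an unadjusted p under 0.05.

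Cell type markers were read beside the enzymes, since *Aldoc* and lactate metabolism differ between neurons and astrocytes. All 9 measured neuron markers passed the brightness filter, and the tubulin gene *Tubb3* and *Stmn2*, a growth-associated microtubule regulator, were above background on all 7 arrays. Against IgG1 and IgG2, 4 of 9 neuron markers, 2 of 3 excitatory and 2 of 4 inhibitory neuron markers were higher with an unadjusted p under 0.05 and 0 were lower, and against 5 IgG arrays 2, 1 and 1 were higher and 0 lower. Of all tested probes 6.51% and 6.06% were higher at that limit in the same comparisons. The neuron marker *Syn1* and the excitatory marker *Slc17a7* were counted as higher in both. They were dim (mean level 6.60 and 6.54) and above background on only 2 of 7 arrays, the fewest the filter allows. Both may thus have entered the test only through the TRF2-S arrays, where they were higher, and no direction is read from them. *Slc17a7* was the only excitatory marker counted as higher against 5 IgG arrays. *Tubb3* differed by 0.48 against IgG1 and IgG2 (SE 0.19, limma adjusted p = 0.37) and by -0.39 against 5 IgG arrays (SE 0.53, limma adjusted p = 0.66). The brighter *Stmn2* differed by -0.11 (SE 0.18, limma adjusted p = 0.88) and 0.09 (SE 0.33, limma adjusted p = 0.87). Of the 9 neuron markers 5 were above 0 against IgG1 and IgG2 (median 0.06) and 4 against 5 IgG arrays (median -0.07).

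Of 5 astrocyte markers tested, 0 were above 0 against IgG1 and IgG2 (median -0.26; 2 lower and 0 higher with unadjusted p under 0.05) and 1 against 5 IgG arrays (median -0.29; 2 lower and 0 higher). Of all tested probes 6.02% and 6.06% were lower at that limit in the same comparisons, and 48.6% and 58.7% were below 0. Among oligodendrocyte lineage markers 2 of 4 tested were also lower at that limit against IgG1 and IgG2 (*Olig1* at -0.47 and *Cnp* at -0.37). Against 5 IgG arrays 0 of them were lower, and 0 were higher in either comparison. No marker was called after adjustment in either comparison. The glutamate carrier *Slc1a3* differed by -0.32 against IgG1 and IgG2 (SE 0.12, limma adjusted p = 0.32). *Aqp4* was not bright enough to be tested.

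Summed over the astrocyte markers, the level on a linear scale was 2305 to 2747 on the TRF2-S arrays, 2884 to 3211 on IgG1 and IgG2, and 2986 to 3149 on the arrays named IgG3. Summed over the enzymes, with the brightest probe of each, it was 6142 to 7234, 7552 to 7875 and 7477 to 7574. Both sums were lower in TRF2-S RIP than on any IgG array. The enzyme sum holds *Aldoa* probe ILMN_1366201, which was brightest on the arrays named IgG3. The other *Aldoa* probe was dimmest there, so the order of the enzyme sum is tied to the probe used. No direction is read from the enzyme sum. The excitatory neuron sum was 1657 to 1738, 1237 to 1421 and 1637 to 1649, and the inhibitory neuron sum was 2186 to 2591, 1906 to 1994 and 2707 to 2844. Both were higher in TRF2-S RIP than on IgG1 and IgG2, while the sum of the general neuron markers overlapped (10353 to 11790, 9952 to 12382 and 11046 to 19348). The part of neuron or astrocyte RNA in the enzyme levels was not tested. In RNA from a RIP without input RNA, fewer cells of a type, less RNA per cell and less co-purification of its mRNAs cannot be told apart. The sum of the oligodendrocyte lineage markers was 5738 to 7382, 8235 to 9567 and 3169 to 4791, with *Mog*, *Mag* and *Olig2* not bright enough to be tested, so it moved with the split among the IgG arrays. For microglia only *Aif1* was bright enough to be tested.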

How the data were processed

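The authors deposited signal intensity per probe and array (linear, not normalized between arrays; BeadStudio version 1.5 in the methods, GenomeStudio 2011.1 in the submitters' processing notes). The deposited detection p-value sets each intensity against the negative control beads of its array. The deposited score equals the Z-score of log intensity to within 5e-10. Here log2 intensity was Z-scored per array and put back with the common mean 6.98 and SD 1.21. This stretches differences on arrays of lower SD, and with no background subtraction changes of dim probes are understated. The 9187 of 22523 probes with detection p under 0.02 on at least 2 arrays entered limma (version 3.58.1, R 4.3.3), checked on simulated data, with Benjamini-Hochberg adjustment over all tested probes. Symbols came from the platform annotation, which names 13793 probes. For genes outside the 10 enzymes the brightest tested probe was used. All enzyme probes were named, with at most 2 genes of each further list, those with the smallest p against IgG1 and IgG2, or for markers the brightest. *Idh3g*, *Syn1* and *Slc17a7* were named in addition, after their values were seen. Members and lists were chosen with earlier results of these data known. Alternatives were scaling, dim-probe filter, left-out arrays, replicate block, averaging of arrays named IgG3 and ANOVA. The number of arrays limits the precision.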

Additional observations from a re-analysis of the deposited data

Results flagged for a closer look

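On the IgG arrays 1 array stood far from the other 4 for both lactate dehydrogenase probes. For *Ldha* it was IgG3_0, at 8.87 beside 9.23 to 9.32, and the gap was 0.81 of the whole range. For *Ldhb* it was IgG1, at 9.40 beside 9.69 to 9.80, and the gap was 0.726 of the range. Dixon's critical value for 5 arrays is 0.71. Chance alone flags about 1 in 20 groups, and 16 groups were checked.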

How the results depend on the processing

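The number of enzyme probes called stayed 0 in both comparisons with TRF2-S, except that 1 (*Tpi1*) was called with quantile normalization of the 4 arrays (-0.41, limma adjusted p = 0.029, 554 probes called in all) and with the replicate block. The labels give IgG1 and IgG2 and the TRF2-S arrays the same numbers, 1 and 2, and same-numbered deviations correlated at 0.28 over 9187 probes, but only 2 numbers are shared and no label says that they mark a pair. With the replicate block the contrast in both comparisons rests on these 4 arrays, 1 enzyme probe (*Tpi1*, -0.51, limma adjusted p = 0.014) and 648 probes in all were called, and against 5 IgG arrays *Eno1* was at 0.064, *Eno2* at 0.17 and *Ldhb* at 0.053. The cause was not tested.

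Against 5 IgG arrays, median centring moved the median of the enzyme probes to -0.74 and that of all tested probes to -0.34. Quantile normalization turned *Aldoc* to 0.072, *Pgk1* to 0.0063, *Ldha* to 0.12 and *Ldhb* to 0.038, and neqc turned them to 0.079, 0.0077, 0.14 and 0.043. Between the arrays named IgG3 and IgG1 and IgG2 (alternatives added after the data were seen), median centring called 0 enzyme probes and 0.0544% of all tested probes. It turned *Gapdh* to 1.24, *Aldoa* probe ILMN_1367380 to 0.14, *Aldoc* to 0.82, *Tpi1* to 0.66 and *Ldha* to 0.82. Quantile normalization and neqc turned *Gapdh* to 0.054 and 0.059 and *Pgk1* to -0.15 and -0.17. The causes were not tested. With *Aldoa* probe ILMN_1367380 (also added) the *Aldoc* minus *Aldoa* ratio against 5 IgG arrays was -0.62.

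Leaving out 1 array at a time, 0 enzyme probes were called in both comparisons with TRF2-S. Against 5 IgG arrays the median ranged from -0.27 (without TRF2-S array 2) to -0.030 (without TRF2-S array 1). The same omissions set the ranges of *Aldoc* (-0.17 to 0.028), *Ldha* (-0.27 to 0.14) and *Ldhb* (-0.26 to 0.11), and *Tpi1* ranged from -0.17 (without IgG3) to 0.048 (without IgG2). They also moved, without a change of sign, *Eno1* (-0.58 to -0.030), *Pgk1* (-0.34 to -0.046) and *Aldoa* probe ILMN_1366201 (-0.59 to -0.20), and *Eno2* was at -0.29 without array 1. Against IgG1 and IgG2 the omission of TRF2-S array 2 and of array 1 gave -0.30 and 0.049 for the median, -0.35 and 0.040 for *Aldoa* probe ILMN_1366201, -0.21 and 0.34 for *Eno1*, -0.37 and 0.049 for *Ldha*, and -0.13 and 0.24 for *Ldhb*. It gave -0.30 and -0.0066 for *Pgk1*, 0.065 and 0.46 for *Pkm*, 0.015 and 0.33 for *Eno2*, and -0.33 and -0.13 for *Aldoc*, while without IgG1 and IgG2 in turn *Pkm* was at 0.42 and 0.10, *Eno2* at 0.30 and 0.043 and *Aldoa* probe ILMN_1367380 at 0.27 and 0.12. Among the IgG arrays 4 to 7 enzyme probes were called, where 27.7% to 63.8% of all tested probes were called. Without IgG1 or IgG2 only *Eno2*, *Pkm*, *Tpi1* and *Aldoa* probe ILMN_1367380 were called (27.7% and 31% of all tested probes).

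TRF2-S RIP has 2 arrays, which limits the precision of every difference. *Pkm* lies near background, so its differences are understated.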
